A study of Sorghum bicolor with 18 samples.

Results

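Lipoxygenases insert oxygen into polyunsaturated fatty acids, and the hydroperoxides they make are the first products of the oxylipin pathways. In Arabidopsis, LOX1 and LOX5 are 9-lipoxygenases, which feed oxylipins known from root branching and from defence against microbes, whereas the jasmonate hormone is made from the products of another class, to which LOX2 and LOX3 belong. The hydroperoxides are passed on to allene oxide synthases, hydroperoxide lyases or peroxygenases, and the substrate is released from membranes by lipases. Of 34211 sorghum genes in the deposited table, 8 carried the symbol LOX1 or LOX5 of the Arabidopsis gene matched to them, 4 with each symbol, and all 8 are described here whatever their values. The symbol is that of the best-matching Arabidopsis gene, and which carbon the sorghum enzymes oxidise was not measured.

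RNA was sequenced from buds in the axil of the first leaf of Sorghum bicolor cultivar 100M, in plants treated 7 days after sowing. Plants of the intact groups kept all their leaves, and in the leaf-removed groups the coleoptile and first leaf were peeled away so that the bud lay exposed but untouched. Buds were taken 1, 3 and 6 h later, which gave 6 groups of 3 libraries. Each library was a pool of 15 buds, and of 4 pools a group the 3 whose RNA was of best quality were sequenced, so replicates show the variation between pools and not between plants.

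The libraries held 21.4 to 45.8 M exon reads (M, 1e6 reads), with a median of 28.7 M. Of 3 genes with the symbol of BRC1, a regulator of bud outgrowth, Sobic.002G198400 was at 2.95 to 9.69 CPM (exon reads per M exon reads, with the libraries scaled to each other), Sobic.007G135700 had a median of 0.826 CPM, and Sobic.001G121600 was at 0 in 11 of 18 libraries. The gene matched to the stem cell regulator WUS was at 0 in 11 libraries as well, and both genes matched to REV, a meristem and vascular regulator, lay at 62.6 to 163 CPM. The leaf gene RBCS1A (Sobic.005G042000), for the small subunit of Rubisco, was at 193 to 777 CPM, so photosynthetic transcripts were present too. Before any comparison, 5 libraries stood apart from their groups in the same way, namely replicate c of intact buds at 1 h and d at 6 h, and of leaf-removed buds replicate d at 1 h, b at 3 h and d at 6 h. In these 5 libraries Sobic.001G125900, Sobic.003G385500, Sobic.003G385900, Sobic.006G248300 and Sobic.008G191000 were each the lowest of their group in 5 of 5 cases. Sobic.001G125700 and Sobic.001G125800 were lowest in 4 of 5, and Sobic.008G157900 in 2 of 5. Results whose calls change without these libraries are given with and without them, some as counts of members only. The 5 were picked for lying apart from their groups, so leaving them out narrows the spread, and p-values without them are too small. On exon reads more of all genes were then called too, at 3 h 10346 of 21993 against 7420 of 21852. Counts of members without the 5 are given without a share of all genes and are a description. Scaling by library totals moved the median log2 change of all genes by over 0.1. It was -0.25, -0.12 and -0.21 at the 3 times with that scaling, and -0.01, 0.00 and -0.03 with the TMM scaling used below.

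In intact buds the 8 genes were expressed at very different levels, compared here as RPKM, which corrects for exon length. Sobic.003G385500 (LOX1) was the highest, at a mean RPKM of 595 ± 182 (SD, n = 3) at 1 h, 673 ± 22.8 at 3 h and 438 ± 99.0 at 6 h. Sobic.001G125900 (LOX5) followed at 214.5 ± 116 RPKM, 183 ± 14.3 and 161 ± 48.6. These genes led at all times, and no library of the second reached the lowest library of the first within any group. Sobic.006G248300 (LOX5) had means of 40.3, 80.5 and 57.7 RPKM, and Sobic.003G385900 (LOX1) had 30.6, 40.6 and 21.7. The ranges of this pair overlapped at 1 h and were separate at 3 and 6 h. Sobic.001G125800 (LOX5) lay below them, at 11.2, 11.9 and 12 RPKM. The other 3 genes were barely expressed, with means of 0.624 to 0.775 RPKM for Sobic.001G125700 (LOX1), 0.315 to 0.424 for Sobic.008G191000 (LOX5) and 0.146 to 0.175 for Sobic.008G157900 (LOX1). Neighbours among these 3 overlapped in at least one intact group, so their order is not firm.

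After leaf removal the order changed in the middle. Sobic.003G385900 took the third place in RPKM from Sobic.006G248300 in all 3 leaf-removed groups, with 194 ± 42.7 against 107 ± 28.9 at 1 h, where the libraries of the pair did not overlap. At 3 and 6 h they did overlap, with means of 127 against 98.4 and of 51.8 against 51.4 RPKM. Sobic.001G125700 reached 25.4 ± 6.01 RPKM at 1 h, and its highest library lay above the lowest of Sobic.001G125800 (35.2 ± 8.91) at 1 and 3 h. Summed over the 8 genes, RPKM was 893 ± 333 in intact against 5947 ± 1332 in leaf-removed libraries at 1 h. It was 991 ± 44.3 against 7795 ± 3016 at 3 h, and 692 ± 159 against 3877 ± 1069 at 6 h. The lowest leaf-removed library, at 2645 RPKM, was above the highest intact one, at 1137 RPKM. As a share of all exon reads the 8 genes took 0.295%, 0.325% and 0.225% in intact buds at the successive times, against 1.93%, 2.54% and 1.26% after leaf removal.

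**Figure D1:**
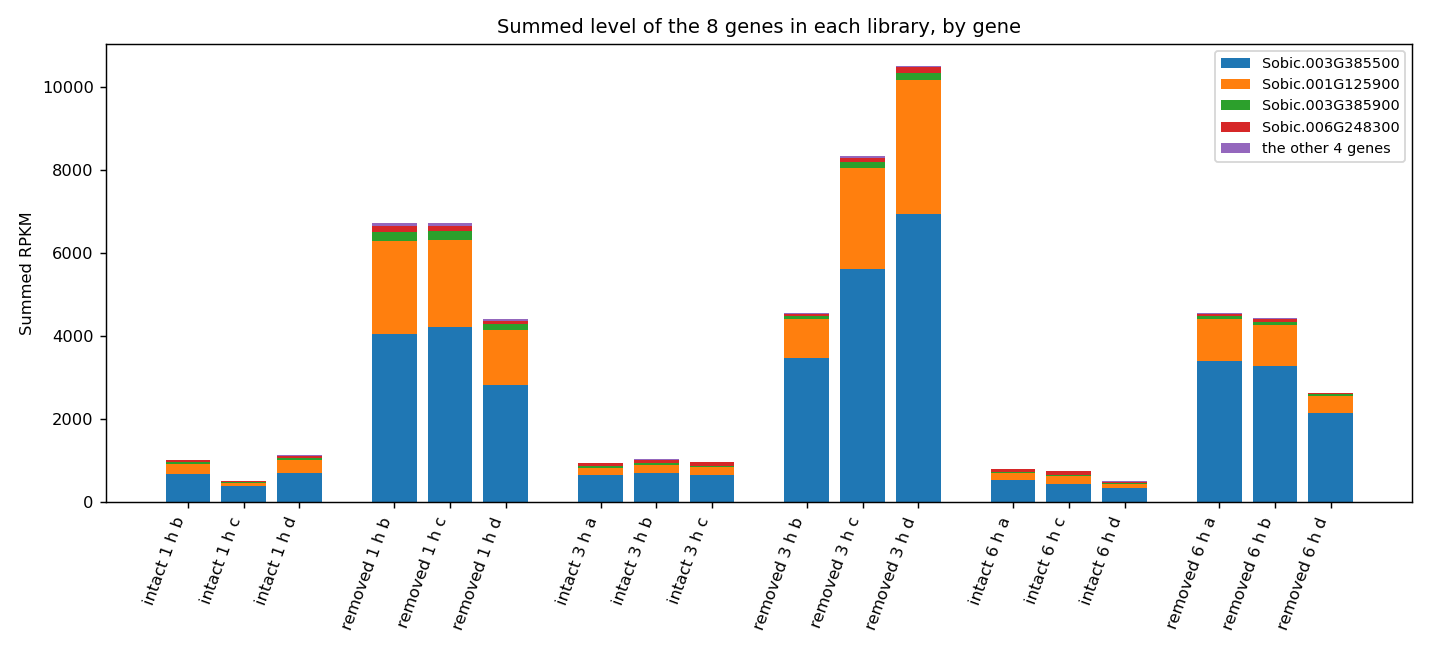
Summed RPKM of the 8 genes in each of the 18 libraries, with colours for the genes and "removed" for leaf-removed; letters are the replicates. Leaf-removed libraries reach 2645 to 10508 RPKM against 510 to 1137 in intact libraries, and Sobic.003G385500 and Sobic.001G125900 make up nearly the whole bar.

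The make-up of this sum was led by Sobic.003G385500, with 68.2%, 67.9% and 63.6% of the summed RPKM in intact buds at the successive times, against 62.4%, 69.95% and 76.7% after leaf removal. By exon reads it ranked 14, 12 and 29 among all genes in intact buds at 1, 3 and 6 h and was first in each leaf-removed group. Sobic.001G125900 ranked 107, 144 and 185 in intact buds and 2, 2 and 11 in leaf-removed buds. In intact buds, no member changed between the 3 times (0 of 8 called, against 9.72% of all 21852 tested genes; edgeR F test, 1 member at an unadjusted p under 0.05). That member was Sobic.003G385900, with an adjusted p of 0.15. Without the 5 libraries 4 of 8 were called, with no share of all genes to set beside that count. The level in intact buds is thus not shown to be steady.

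Within 1 h of leaf removal, transcripts of 6 of the 8 genes were higher than in intact buds of the same hour, and none was lower (0 also at an unadjusted p under 0.05, and 0 with DESeq2). Of all 21852 tested genes, 24.8% were called higher and 24.1% lower at 1 h, a call being an adjusted p under 0.05 in edgeR's quasi-likelihood test. The median log2 fold change of the 8 genes was 2.37, against -0.01 for all tested genes. The libraries of the intact and leaf-removed groups did not overlap for the same count of 6 genes, a separation that 28.3% of all tested genes showed in this direction. In bulk tissue, a change in the number of cells of a type and a change in RNA per cell cannot be told apart.

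The largest fold was that of Sobic.001G125700, a LOX1 gene that was nearly silent in intact buds. It had 2.44, 1.87 and 3.51 CPM in the intact libraries (replicates b, c and d) and 119, 110.5 and 69.9 CPM in the leaf-removed ones. All 3 leaf-removed libraries were above all intact ones, a log2 change of 5.26 ± 0.44 (SE; adjusted p = 1.3e-07), or 38.3-fold. Per length it was still a minor member, at 25.4 ± 6.01 RPKM in those libraries against 3697 ± 767 RPKM for Sobic.003G385500.

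Sobic.003G385500, the most abundant of the family, had 2154, 1218 and 2235 CPM in intact and 14821, 15998 and 9815 CPM in leaf-removed libraries at 1 h. The lowest leaf-removed library was the deviating replicate d, and it still exceeded every intact library. The log2 fold change was 2.86 ± 0.31 (adjusted p = 1.7e-06), or 7.25-fold. Sobic.003G385900, the other LOX1 gene with a close identifier, had 108, 51.8 and 116 CPM in intact and 726, 829 and 488 CPM in leaf-removed libraries. Its log2 fold change was nearly the same, at 2.89 ± 0.33 (adjusted p = 2.8e-06). Reads of these genes were 95.8% to 97.1% uniquely placed, against 100% for the other 6, and both calls held on uniquely placed reads alone.

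Among the LOX5 genes, Sobic.001G125900 had 790, 274 and 977 CPM in intact and 8316, 7986 and 4669 CPM in leaf-removed libraries at 1 h. The groups were apart, although intact replicate c lay well below the other intact libraries, and the log2 fold change was 3.36 ± 0.52 (adjusted p = 5.7e-05). Sobic.001G125800 had 41.0, 32.7 and 59.9 CPM against 193, 188 and 111 CPM, a log2 change of 1.88 ± 0.24 (adjusted p = 8.3e-06). Sobic.006G248300 had 143, 47.2 and 157 CPM against 440, 395 and 240 CPM, a log2 change of 1.63 ± 0.47 (adjusted p = 0.0092). All 3 leaf-removed libraries were the higher ones for both genes.

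Sobic.008G157900 and Sobic.008G191000 were not called at any time. They rested on few reads, with 39 and 104 exon reads over the 3 intact libraries at 1 h and 45 and 136 over the leaf-removed ones. Their log2 fold changes at 1 h were 0.68 ± 0.65 (adjusted p = 0.41) and 0.85 ± 0.60 (adjusted p = 0.26), and intact and leaf-removed libraries overlapped. Without the 5 deviating libraries the adjusted p of Sobic.008G191000 at 1 h was 0.089, at 0.78 on the log2 scale.

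**Figure D2:**
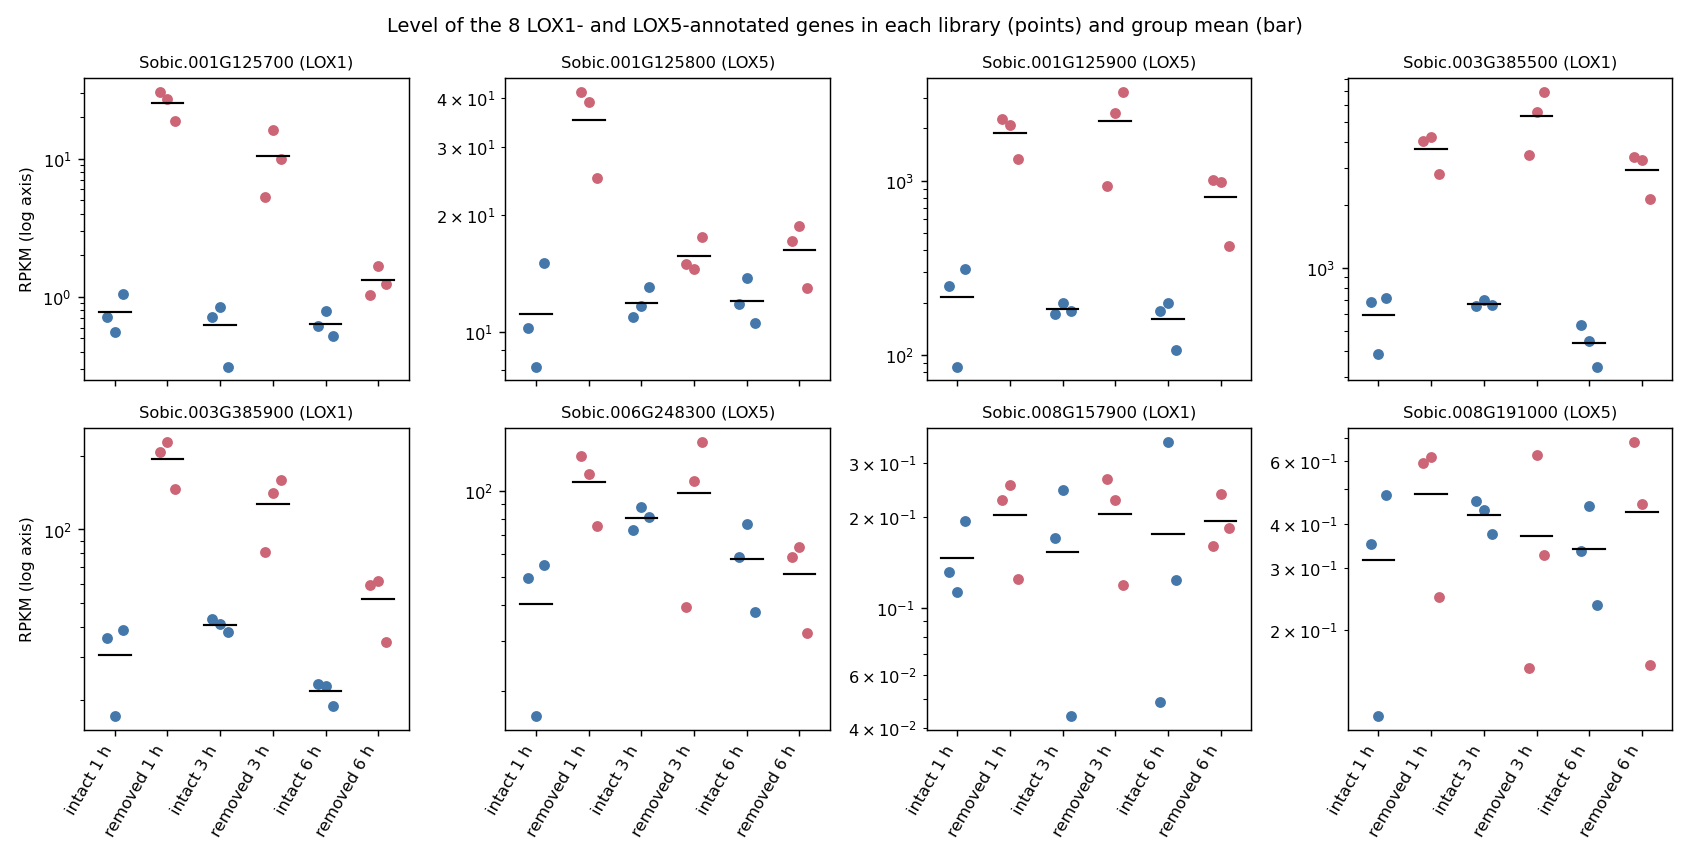
RPKM of each of the 8 genes (log axis, own scale per panel) in the 3 libraries of each group, blue for intact and red for leaf-removed buds, with the group mean as a bar. At 1 h the leaf-removed points of 6 genes lie above all intact points, while the panels of Sobic.008G157900 and Sobic.008G191000, at means of 0.146 to 0.486 RPKM, overlap throughout.

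Some lists of tissue markers also moved at 1 h, when 24.8% of all tested genes were called higher and 24.1% lower. Of 17 tested vascular or secondary wall markers, 8 were higher and 1 lower, with a summed level of 231 to 250.4 CPM over the 21 listed genes in intact and 271 to 373 CPM in leaf-removed libraries. Of 16 tested markers of the axillary meristem and shoot apex, 1 was higher and 6 lower, with 339 to 427 CPM against 300.4 to 321 CPM summed over the 20 listed genes. Of 8 tested root markers, 1 was higher and 5 lower, with 177 to 275 against 124 to 131 CPM summed over the 10 listed genes. The root list was thus clearly expressed in these bud libraries and is not read as a sign of root tissue. Leaf markers gave 1 higher and 0 lower of 10 tested, with summed levels of 814 to 2109 against 1403 to 2063 CPM over the 11 listed genes. The leaf gene called higher was RBCS1A, at 0.94 ± 0.14 on the log2 scale (adjusted p = 3.9e-05). Epidermis markers were 2 higher and 2 lower of 11, and the leaf and epidermis counts were below the shares of all genes. Genes with 0 reads in all 18 libraries were 1 of the leaf list (an LHCB1.4 gene), 1 of the meristem list (a CUC2 gene), 1 of the epidermis list (an LTP1 gene), 1 of the root list (an SCR gene) and 0 of the vascular list. The part of these shifts in the lipoxygenase result was not tested.

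At 3 h, 4 of the 8 genes were higher in leaf-removed buds and none lower (0 at an unadjusted p under 0.05 and 0 with DESeq2), against 17.8% of all tested genes called higher and 16.2% lower. Their groups did not overlap for 5 of 8 genes, against 23.5% of all tested genes higher without overlap, and the median log2 fold change of the members was 1.15, against 0.00 for all genes. Sobic.003G385500 reached its highest level in the series, with 1991, 2134 and 2072 CPM in intact (replicates a, b and c) and 11449, 18410 and 23364 CPM in leaf-removed libraries (replicates b, c and d). The spread among leaf-removed libraries was wide, yet the lowest of them, which is a deviating one, was above every intact library, with a log2 change of 3.10 ± 0.31 (adjusted p = 2.0e-06).

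Sobic.001G125900 at 3 h had 527, 615 and 565 CPM against 3098, 8107 and 10950 CPM. Its log2 fold change was 3.70 ± 0.52 (adjusted p = 5.7e-05), and the groups did not overlap, although the leaf-removed libraries were widely spread. Sobic.001G125700 had 2.31, 2.78 and 1.04 CPM against 18.5, 56.7 and 35.9 CPM. Every leaf-removed library was the higher one, and the log2 fold change was 4.19 ± 0.43 (adjusted p = 2.6e-06). Sobic.003G385900 had 125, 119 and 113 CPM against 256, 442 and 513 CPM, with a log2 change of 1.76 ± 0.32 (adjusted p = 0.00046).

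The LOX5 genes Sobic.001G125800 and Sobic.006G248300 were not called at 3 h. The former had 42.2, 45.2 and 51.7 CPM against 62.9, 60.7 and 75.2 CPM, which do not overlap, with a log2 change of 0.51 ± 0.23 (adjusted p = 0.10). The latter had 202, 246 and 230 CPM against 118, 324 and 454 CPM, with a log2 change of 0.40 ± 0.46 (adjusted p = 0.54). Its lowest value was that of the deviating leaf-removed replicate b, and the groups overlapped. Without the 5 deviating libraries both were called, at 0.55 (adjusted p = 0.0073) and 0.78 (adjusted p = 0.00044) on the log2 scale. Those p-values are too small, as the libraries were left out for lying apart from their groups. Vascular markers at this time were 3 higher and 1 lower of 17, leaf markers 1 and 2 of 10, meristem markers 0 and 0 of 16, epidermis markers 3 and 1 of 11 and root markers 1 and 0 of 8. Of all tested genes 17.8% were called higher and 16.2% lower.

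At 6 h, 5 of 8 genes were higher and none lower (0 at an unadjusted p under 0.05 and 0 with DESeq2), against 18% of all tested genes called higher and 15.9% lower. The groups did not overlap in CPM for 5 genes, against 23.5% of all tested genes. The members' median log2 fold change was 0.94, against -0.03 for all genes. Sobic.003G385500 had 1644, 1357 and 1010 CPM in intact (replicates a, c and d) and 11771, 11768 and 7197 CPM in leaf-removed libraries (replicates a, b and d). Every leaf-removed library was above all intact ones, at a log2 change of 2.94 ± 0.31 (adjusted p = 4.4e-06), or 7.66-fold. Sobic.001G125900 had 556, 611 and 322 CPM against 3526, 3566 and 1435 CPM, a log2 change of 2.52 ± 0.50 (adjusted p = 0.0011). Sobic.003G385900 had 68.7, 66.4 and 54.1 CPM against 195, 211 and 111 CPM, a log2 change of 1.45 ± 0.31 (adjusted p = 0.0021). For both genes the lowest leaf-removed library, replicate d, was one of the 5 that deviate and lay above all intact libraries.

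At 6 h the groups of Sobic.001G125700 lay close together without overlap, with 2.04, 2.56 and 1.67 CPM against 3.81, 6.45 and 4.49 CPM. The log2 fold change was 1.25 ± 0.41 (adjusted p = 0.029), or 2.37-fold, resting on 171 exon reads over the intact and 467 over the leaf-removed libraries. Sobic.001G125800 had 46.2, 53.2 and 40.3 CPM against 75.4, 85.3 and 55.5 CPM, a log2 change of 0.63 ± 0.23 (adjusted p = 0.045). In RPKM its groups overlapped, at 10.5 to 13.8 against 13 to 18.8. Library totals, voom or the loss of intact replicate a or d or leaf-removed replicate b at 6 h ended both calls (edgeR or voom adjusted p = 0.05 to 0.16 for Sobic.001G125700 and 0.054 to 0.17 for Sobic.001G125800). The call of Sobic.001G125800 was also lost without leaf-removed 6 h replicate a (adjusted p = 0.1) and without intact 3 h replicate b or c (adjusted p = 0.051 and 0.052). Sobic.006G248300 had 165, 213 and 103.5 CPM against 185, 207 and 98.0 CPM, a log2 change of 0.03 ± 0.46 (adjusted p = 0.97), and its groups overlapped. Vascular markers were 1 higher and 2 lower of 17 at 6 h, leaf markers 1 and 2 of 10, meristem markers 0 and 2 of 16, epidermis markers 3 and 1 of 11 and root markers 1 and 0 of 8. Of all tested genes 18% were called higher and 15.9% lower.

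The difference of the leaf removal effect between times was tested within each gene, and genes were not tested against each other. From 1 to 3 h, 1 of 8 effects became smaller, a share close to the 13.2% of all tested genes, and 0 became larger, against 13.4% (0 at an unadjusted p under 0.05, and 0 with DESeq2). It was that of Sobic.001G125800, which fell by 1.37 ± 0.33 on the log2 scale (adjusted p = 0.0054). From 3 to 6 h, 1 of 8 became smaller, against 0.902% of all tested genes, and 0 became larger, against 2.35% (0 at an unadjusted p under 0.05, and 0 with DESeq2). It was that of Sobic.001G125700, which fell by 2.95 ± 0.58 (adjusted p = 0.0089). This call did not hold with voom (adjusted p = 0.098).

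Between 1 and 6 h, 3 of 8 effects became smaller, against 19.5% of all tested genes, and 0 became larger, against 18.6% (0 at an unadjusted p under 0.05, and 0 with DESeq2). That of Sobic.001G125700 fell by 4.01 ± 0.58 (adjusted p = 5.7e-05), that of Sobic.001G125800 by 1.25 ± 0.33 (adjusted p = 0.0067) and that of Sobic.003G385900 by 1.44 ± 0.44 (adjusted p = 0.016). The last call was lost when replicate a of intact buds at 6 h (adjusted p = 0.051) or replicate c of leaf-removed buds at 1 h (adjusted p = 0.062) was left out. The difference for Sobic.003G385500 was 0.08 ± 0.41 (adjusted p = 0.90), for Sobic.001G125900 -0.84 ± 0.67 (adjusted p = 0.34) and for Sobic.006G248300 -1.61 ± 0.66 (adjusted p = 0.065). The shares of all genes above do not apply to the fit without the 5 deviating libraries, whose counts are a description. In that fit the counts that became smaller were 3 from 1 to 3 h, 3 from 3 to 6 h and 5 from 1 to 6 h, and 2 became larger from 1 to 3 h. That pair was Sobic.001G125900 (0.86, adjusted p = 0.0026) and Sobic.003G385500 (0.53, adjusted p = 0.023). The smaller effects added were Sobic.003G385900 (-0.79, adjusted p = 0.0008) and Sobic.006G248300 (-0.69, adjusted p = 0.023) from 1 to 3 h. From 3 to 6 h they were Sobic.001G125900 (-1.46, adjusted p = 0.00037) and Sobic.006G248300 (-0.73, adjusted p = 0.032). From 1 to 6 h the same genes were added (-0.60, adjusted p = 0.024, and -1.42, adjusted p = 0.00016).

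Within leaf-removed buds alone, 4 of 8 genes changed between the 3 times, against 51% of all tested genes. They were Sobic.001G125700 (adjusted p = 1.5e-06), Sobic.001G125800 (adjusted p = 0.00020), Sobic.003G385900 (adjusted p = 0.00028) and Sobic.001G125900 (adjusted p = 0.048). The mean of the first went from 99.7 ± 26.2 to 37.0 ± 19.1 and then 4.92 ± 1.37 CPM, and that of the last from 6990 ± 2017 to 7385 ± 3975 and then 2842 ± 1219 CPM. The call of Sobic.001G125900 held in 4 of the 18 fits that left out 1 library, those without replicate c at 1 h or d at 6 h of intact buds, or replicate d at 1 h or b at 3 h of leaf-removed buds (adjusted p from 0.012 to 0.19 over the 18). Sobic.003G385500 missed the threshold (adjusted p = 0.082), with means of 13545 ± 3283, 17741 ± 5986 and 10245 ± 2640 CPM. Without the 5 deviating libraries 6 of 8 were called, a description to which the 51% of all genes does not apply. Sobic.003G385500 (adjusted p = 0.00015) and Sobic.006G248300 (adjusted p = 8.3e-05) were added. Single libraries left out gave 3 to 6, the 6 without leaf-removed 3 h replicate b.

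**Figure D3:**
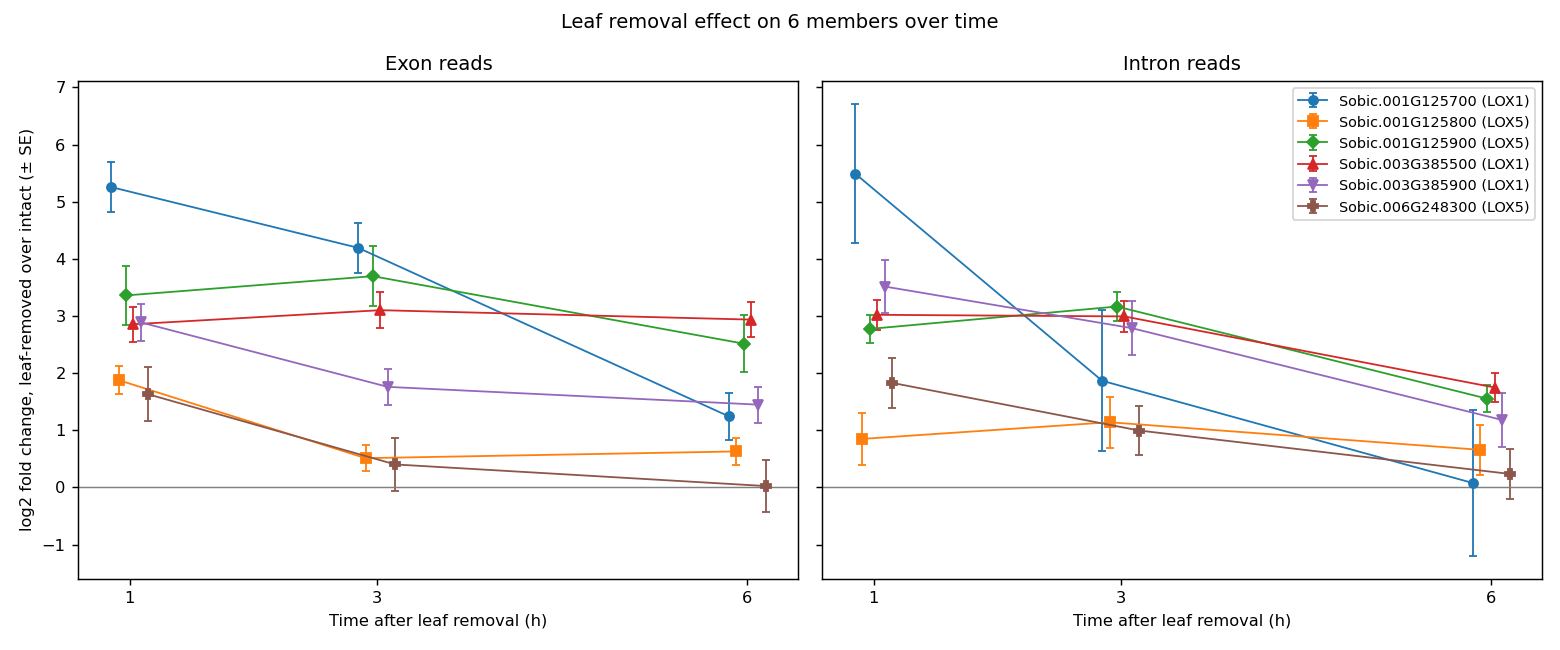
Log2 ratio of leaf-removed to intact buds (vertical axis, ± SE, 3 libraries a group) against hours after leaf removal for 6 members, from exon reads on the left and intron reads on the right. Sobic.001G125700 goes from 5.26 to 1.25 on exon reads, Sobic.003G385500 stays between 2.86 and 3.10, and on intron reads, scaled by their own TMM factors, Sobic.003G385500, Sobic.001G125900 and Sobic.003G385900 are lower at 6 h than at 1 h, differences that were not called with exon scaling (-0.24, -0.33 and -1.52 on the log2 scale).

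Intron reads come mostly from unspliced RNA and were not used in the tests above. They were 3.12% to 7.23% of gene reads per library, and 6 of the 8 genes had enough to be tested, over 14725 genes. At 1 h, 5 of the 6 were higher and 0 lower, against 12.7% higher and 11.4% lower of all genes tested on intron reads. At 3 h, 3 were higher and 0 lower, against 7.29% and 5.58%, and at 6 h 2 were higher and 0 lower, against 5.43% and 5.26% (0 lower at an unadjusted p under 0.05 at each time, DESeq2 not run on intron reads). The members' medians were 2.90, 2.33 and 0.92 on the log2 scale, against -0.06, 0.02 and -0.0038 for all genes tested on intron reads. These fits scale intron reads by TMM factors of their own. Scaled by the exon reads instead, the median of all genes was -0.60, -0.08 and 0.32 at 1, 3 and 6 h, and 27.9%, 61.2% and 80.2% of the called genes were higher, against 52.8%, 56.7% and 50.8%. The counts of members higher were then 5, 3 and 3. Without the 5 deviating libraries they were 5, 5 and 3, with Sobic.001G125800 (1.55, adjusted p = 0.015) and Sobic.006G248300 (1.31, adjusted p = 0.00023) added at 3 h. Whether the counting used strand is not stated, so reads of overlapping genes on the other strand cannot be told apart.

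Per M gene reads, Sobic.003G385500 had 15.1, 22.7 and 12.9 intron reads in intact and 78.5, 79.5 and 75.9 in leaf-removed libraries at 1 h. The leaf-removed libraries were closely alike and all above the intact ones, with a log2 change of 3.02 ± 0.27 (adjusted p = 5.3e-08). At 3 h it had 9.87, 9.05 and 8.64 against 65.9, 56.2 and 58.8, a log2 change of 2.99 ± 0.27 (adjusted p = 1.4e-07). At 6 h it had 8.77, 8.26 and 8.70 against 31.5, 26.0 and 45.5, a log2 change of 1.75 ± 0.26 (adjusted p = 0.00012). With the intron factors the effect at 6 h was smaller than at 1 h by 1.27 ± 0.35 on the log2 scale (difference of -1.27, adjusted p = 0.016). Scaled by the exon reads, which is closer to the values per M just given, the effects were 2.42 at 1 h and 2.18 at 6 h, and their difference was -0.24 (adjusted p = 0.68). The call thus depends on the scaling, and it was also lost when replicate c of leaf-removed buds at 1 h was left out (adjusted p = 0.052).

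Sobic.001G125900 had 15.9, 19.9 and 14.3 intron reads per M gene reads in intact and 65.9, 63.7 and 74.6 in leaf-removed libraries at 1 h. At 6 h it had 9.38, 10.5 and 13.9 against 37.4, 29.1 and 45.0. All leaf-removed libraries were the higher ones at both times. The log2 fold changes were 2.78 ± 0.25 at 1 h, 3.17 ± 0.25 at 3 h and 1.55 ± 0.24 at 6 h, all called, and the effect at 6 h was smaller than at 1 h by 1.22 ± 0.33 (difference of -1.22, adjusted p = 0.014) with the intron factors. With exon scaling the effects at 1 and 6 h were 2.24 and 1.91, and their difference was -0.33 (adjusted p = 0.54). For Sobic.003G385900 the intron log2 fold changes were 3.52 ± 0.46 (adjusted p = 7.5e-06), 2.79 ± 0.47 (adjusted p = 0.00039) and 1.18 ± 0.47 (adjusted p = 0.12). At 6 h it was called with exon scaling (1.53, adjusted p = 0.027), with no filter (1.22, adjusted p = 0.0024) and without the 5 deviating libraries (1.08, adjusted p = 0.045). Its change from 1 to 6 h was -2.34 ± 0.65 (adjusted p = 0.015) with the intron factors and -1.52 (adjusted p = 0.058) with exon scaling, and the call was also lost without intact 6 h replicate a (adjusted p = 0.057). These 3 genes of 6 became smaller from 1 to 6 h, against 8.4% of all genes tested on intron reads, and 0 of 6 did with exon scaling, where the median shift of all genes was 0.89.

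Sobic.001G125700 had 2 intron reads over the 3 intact libraries and 54 over the leaf-removed ones at 1 h (adjusted p = 0.0020). With so few intact reads no fold is given. It had 4 against 12 at 3 h and 4 against 6 at 6 h, which were not called. Sobic.006G248300 was called on intron reads at 1 h, at 1.83 ± 0.44 (adjusted p = 0.0040), as on exon reads. Sobic.001G125800 was not called, with 51 against 47 intron reads at 1 h and a log2 change of 0.85 ± 0.45 (adjusted p = 0.18). With exon scaling the change was 0.34 (adjusted p = 0.59), and per M gene reads the groups overlapped. The exon effect of the same gene at that time was 1.88 ± 0.24.

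The remaining genes of the pathway included many that were higher too. Of 88 genes listed by annotation as lipases, fatty acid desaturases, other lipoxygenases, hydroperoxide-using enzymes and jasmonate enzymes, 66 were tested. Of these, 44, 40 and 32 were higher and 3, 2 and 4 lower at 1, 3 and 6 h, with median log2 fold changes of 1.61, 1.32 and 0.84. Of all tested genes 24.8%, 17.8% and 18% were higher and 24.1%, 16.2% and 15.9% lower. The counts of the single lists below stand beside the same shares. The lists were drawn up with results of these data known and are a description.

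The nearest relatives are the other lipoxygenases, with 4 genes matched to LOX2 or LOX3, which in Arabidopsis act in jasmonate synthesis. All 4 were higher at 1 h and 3 of them at 3 h, and at 6 h 1 was higher and 1 lower. The most abundant, Sobic.004G078600 (LOX2), rose from 328 ± 132 to 908 ± 131 CPM at 1 h (log2 fold change 1.47 ± 0.34, adjusted p = 0.0022). Sobic.006G095600 (LOX3) rose from 3.26 ± 0.228 to 20.8 ± 6.16 CPM (2.67 ± 0.37, adjusted p = 2.3e-05). Sobic.001G483400 (LOX3) was higher at 1 h, at 1.31 ± 0.23, and lower at 6 h, at -0.65 ± 0.23 (adjusted p = 0.037). Sobic.007G210400 (LOX2) was low throughout, with at most 2.24 ± 0.767 CPM as a group mean, and is named beside the 3 of lowest p to complete the list. It was called higher at 1, 3 and 6 h, at 2.02 ± 0.79, 3.42 ± 0.82 and 3.05 ± 0.78 (adjusted p = 0.044, 0.0041 and 0.007). Its intact means were only 0.176 to 0.277 CPM.

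Upstream of the lipoxygenases, lipases release the fatty acid. Of 16 tested phospholipases 8, 8 and 3 were higher and 2, 0 and 1 lower at the successive times. The 3 of 16 at 6 h were near the 18% of all tested genes, with a list median of 0.011 on the log2 scale. A pair matched to PLA IIA, a patatin-like lipase induced by pathogens in Arabidopsis, had the smallest p-values at 1 h. Sobic.005G186100 went from 112 ± 2.82 to 1380 ± 382 CPM at 1 h (log2 fold change 3.62 ± 0.31, adjusted p = 1.3e-07) and was still higher at 6 h, at 5.16 ± 0.33 (adjusted p = 4.5e-08). Its intact level was 9.15 ± 1.31 CPM at 3 h, well under that at 1 h. Sobic.005G186200 rose by 3.53 ± 0.36, 4.90 ± 0.39 and 4.03 ± 0.37 on the log2 scale at 1, 3 and 6 h. The third, Sobic.003G391000, matched to the plastid lipase DGL, had 0 CPM in all intact libraries at 1 h and a mean of 2.92 ± 0.937 CPM in leaf-removed ones, so no fold is given.

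Desaturases make the polyunsaturated substrates. Of 6 tested, 3 were higher at 1 h, 5 at 3 h and 5 at 6 h, and 0 were lower. The 3 named are all FAD8 genes, for a plastid desaturase, and Sobic.005G002800 rose from 37.9 ± 6.04 to 176 ± 19.5 CPM at 1 h (2.21 ± 0.17 on the log2 scale, adjusted p = 5.6e-08). Sobic.001G407600 rose by 1.58 ± 0.12 at 1 h. Sobic.008G003200 had log2 fold changes of 1.11 ± 0.31 at 1 h and 3.20 ± 0.34 at 6 h.

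Downstream of lipoxygenases in general, allene oxide synthase acts on the hydroperoxides, and allene oxide cyclase on the product of the synthase. Of 4 tested genes 3 were higher at 1 h, 3 at 3 h and 2 at 6 h, and 0 were lower. The cyclase gene Sobic.001G329800 (AOC3) went from 116 ± 20.4 to 822 ± 197 CPM at 1 h (2.82 ± 0.25, adjusted p = 1.8e-07), and the AOS genes Sobic.001G077400 and Sobic.001G449700 rose by 4.84 ± 0.65 and 2.99 ± 0.42. The single hydroperoxide lyase gene, Sobic.004G007500 (HPL1), which makes the volatile aldehydes of cut leaves, rose by 1.89 ± 0.43 at 1 h (adjusted p = 0.0016) and 2.21 ± 0.43 at 3 h (adjusted p = 0.00091).

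Of 9 tested oxophytodienoate reductases 5 were higher at 1 h, 5 at 3 h and 4 at 6 h, and 0 were lower. OPR3, the jasmonate-forming type, was represented by Sobic.007G151100, at 2.78 ± 0.20 at 1 h (adjusted p = 2.0e-08). The OPR2 genes Sobic.010G084700 and Sobic.010G084300 had 0.211 ± 0.246 and 0.0459 ± 0.0795 CPM in intact buds and 86.7 ± 34.8 and 6.00 ± 3.19 CPM in leaf-removed buds at 1 h.

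Of 9 tested caleosin or peroxygenase genes, which bind calcium on oil bodies and can use hydroperoxides, 7, 5 and 7 were higher and 0, 1 and 1 lower at 1, 3 and 6 h. Sobic.010G105000 went from 0.208 ± 0.128 to 83.0 ± 22.2 CPM at 1 h, and Sobic.001G452200 (RD20) from 0.590 ± 0.151 to 11.2 ± 2.0 CPM. Of 6 tested genes for beta-oxidation of the jasmonate precursor 5, 4 and 4 were higher and 0 lower, led by Sobic.001G516600 (OPCL1) at 3.09 ± 0.25 at 1 h, with Sobic.010G049100 (ACX1) at 0.84 ± 0.08 and Sobic.001G230100 (KAT2) at 1.01 ± 0.11. Of 11 tested jasmonate conjugation and turnover genes 8, 6 and 6 were higher and 1, 1 and 1 lower. Among these, JAR1 (Sobic.009G249900) rose by 1.59 ± 0.10, CYP94C1 (Sobic.008G036000) by 4.27 ± 0.47 and CYP94B3 (Sobic.005G109000) by 4.39 ± 0.54 at 1 h.

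**Figure D4:**
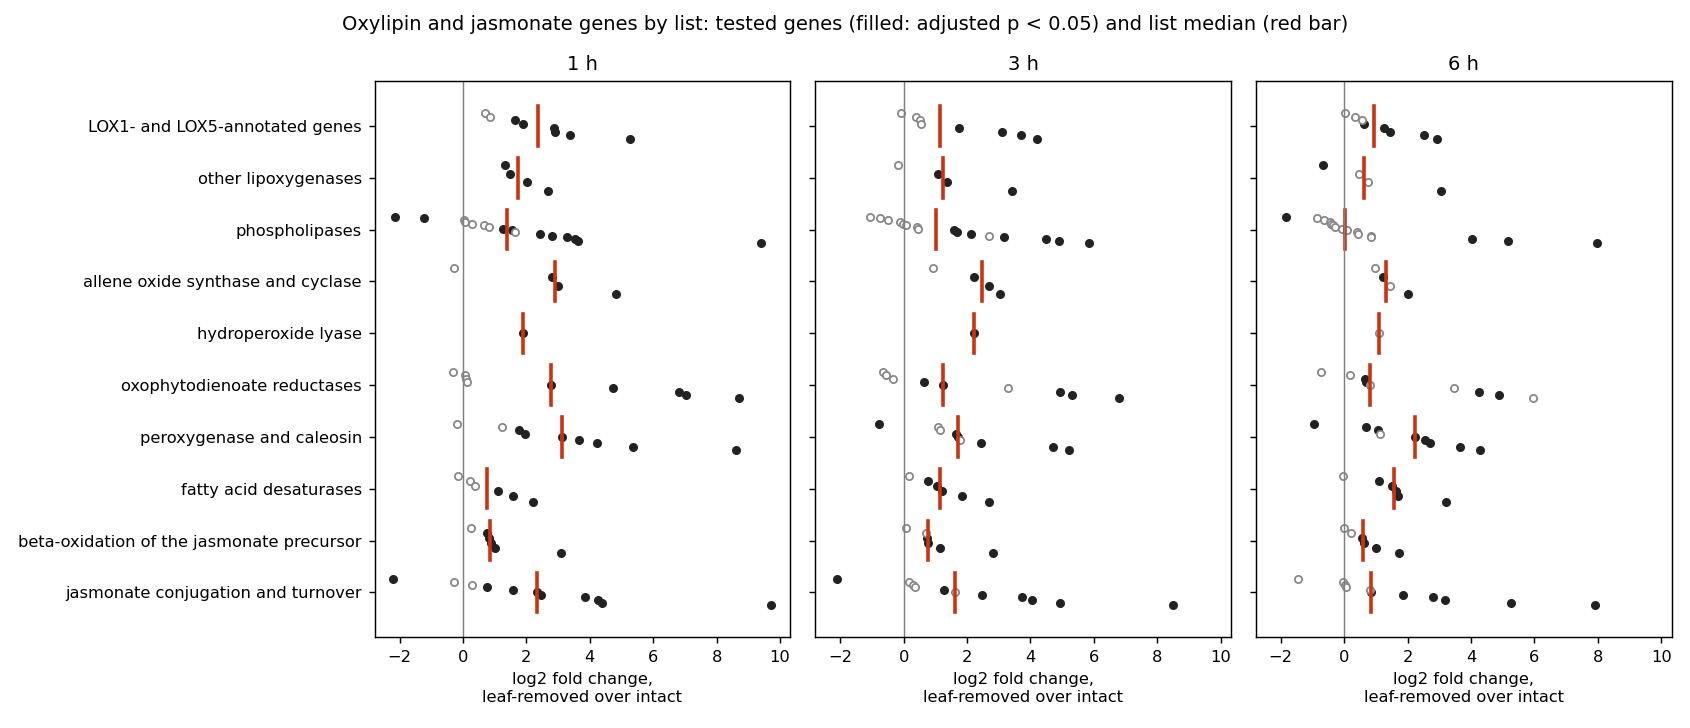
Log2 ratio of leaf-removed to intact buds (horizontal axis) for each tested gene of the lipoxygenases described here and of 9 lists, at 1, 3 and 6 h; filled points have an adjusted p under 0.05 and red bars are list medians. The median of the LOX1- and LOX5-annotated genes goes from 2.37 to 1.15 and 0.94, while that of the desaturases goes from 0.75 to 1.13 and 1.56.

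The genes whose log2 CPM over the 18 libraries followed Sobic.003G385500 most closely were Sobic.010G023700 (a transketolase, of the pentose phosphate pathway; Pearson r = 0.985), Sobic.001G011400 (a Sec14p-like lipid transfer protein; r = 0.982) and Sobic.007G076000 (CAD9, a cinnamyl alcohol dehydrogenase homologue; r = 0.980). The mean of the transketolase went from 278 ± 38.8 to 447 ± 14.8 CPM at 1 h, whereas CAD9 went from 21.1 ± 9.19 to 979 ± 298 CPM. Closest to Sobic.001G125700 were the caleosin gene Sobic.004G247400 (r = 0.981), Sobic.001G329800 (AOC3; r = 0.973) and Sobic.001G217500 (a nucleotide or sugar transporter; r = 0.972). All 3 had lower means at each later time in leaf-removed buds, AOC3 with means of 822, 362 and 152 CPM. These correlations are over libraries that share the treatment, the time and the 5 deviating pools, and are a description.

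The authors' deposited table gives signed folds of its own for the same comparisons. For Sobic.003G385500 the authors' deposited table has 7.18-fold, 8.55-fold and 7.69-fold at 1, 3 and 6 h, and for Sobic.001G125700 32.4-fold, 15.0-fold and 2.12-fold. In the authors' deposited table the FDR p-value at 6 h was 1 for Sobic.001G125700 and 0.517 for Sobic.001G125800, so neither call at 6 h was made there.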

How the data were processed

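The deposited table holds, per gene and library, counts of exon, unique exon and intron reads and RPKM, per the file headers. It also holds the authors' fold changes and FDR-corrected p-values from their test with tagwise dispersions, per the file headers. RNA was DNase-treated and libraries were made with a TruSeq kit and read at 125 bp, per the labels' protocols. For the aligner, genome build and strand setting: not given in the sources used here. None of the identifiers (0) matched the RefSeq names, so positions and sequences were not used here.

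Exon counts were tested with edgeR 4.0.16 in R 4.3.3 (quasi-likelihood F test, TMM, default filter, 21852 genes, 1 fit of 6 groups, 12 residual degrees of freedom, Benjamini-Hochberg adjusted p under 0.05). Standard errors are the log2 fold change over the square root of F. Differences between times are interaction contrasts. Intron counts were tested alike over 14725 genes, with their own TMM factors. Log2 CPM used a prior count of 2. RPKM served for levels. Simulated counts with known changes were used to check the tests. Alternatives, tables and figures used limma 3.58.1 (voom), DESeq2 1.42.0 and Python 3.11.15 with matplotlib 3.10.9, pandas 2.3.3 and numpy 2.4.6.

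All genes with the symbol LOX1 or LOX5 are described. Of each other list up to 3 genes of lowest p at 1 h were named, and as pattern neighbours the 3 of highest correlation; the fourth other lipoxygenase and single marker genes were named after their values were seen. Symbols shared with unrelated genes were removed from lists by title, and the alpha-dioxygenase list matched 0 genes. The members and lists were chosen with earlier results of these data known. Alternatives were library totals, DESeq2 and its size factors, no filter, voom, a stricter filter (1 CPM in 9 libraries), each time alone, a replicate block, unique reads, the intron share as covariate, exon scaling of intron reads, leaving out the 5 deviating libraries, and each library in turn. The p-values measure spread between pools, and reads without molecular identifiers give counting error only.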

Additional observations from a re-analysis of the deposited data

Results flagged for a closer look

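For 3 genes the leaf removal effect on exon reads differed between times by the interaction test. Sobic.001G125700 changed by -2.95 on the log2 scale from 3 to 6 h and by -4.01 from 1 to 6 h. Sobic.001G125800 changed by -1.37 from 1 to 3 h and by -1.25 from 1 to 6 h. Sobic.003G385900 changed by -1.44 from 1 to 6 h. On intron reads, scaled by their own TMM factors, the effect differed between 1 and 6 h for Sobic.001G125900 (-1.22), Sobic.003G385500 (-1.27) and Sobic.003G385900 (-2.34). With the scaling of the exon reads these differences were -0.33, -0.24 and -1.52, and 0 of the 3 were called (edgeR adjusted p = 0.54, 0.68 and 0.058).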

How the results depend on the processing

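Of the settings run for single genes, 1549 kept direction and call, 31 gained a call, 24 lost one and 34 turned direction, none of the last from a called value to a called value of the other sign. The count of 6 members higher at 1 h held in every alternative. At 6 h the 5 became 3 with library totals, with voom and with the replicate block, and 3 to 5 when single libraries were left out (3 without intact 6 h replicate a or d or leaf-removed 6 h replicate b). The labels do not say whether a replicate letter links intact and leaf-removed pools. Deviations of libraries with the same letter and time gave r of mixed sign (-0.41 to 0.53), and the letters were not used as pairs. These deviations also hold the shared shift of the 5 libraries, so the r values cannot decide whether the pools were paired. With the replicate block the adjusted p at 6 h was 0.072 for Sobic.001G125700 and 0.11 for Sobic.001G125800, and 0 in place of 1 effect became smaller from 3 to 6 h (0 also with voom). Without the 5 deviating libraries 2 effects became larger and 3 smaller from 1 to 3 h, 3 smaller from 3 to 6 h and 5 smaller from 1 to 6 h, and 4 members changed in intact buds. With the intron share as covariate these were 2 and 3 from 1 to 3 h, 1 larger from 1 to 6 h, and 4 in intact buds. DESeq2 made 2 smaller from 1 to 3 h, and leaving out single libraries 1 to 2 (2 without replicate d of leaf-removed buds at 3 h or at 6 h). Directions that turned were all of uncalled values. For Sobic.008G191000 they were -0.067 at 1 h (covariate) and 0.14 (replicate block) and 0.28 (without the 5) at 3 h. For Sobic.006G248300 they were -0.17 at 3 h (covariate), and -0.17 (library totals) and -0.016 (replicate block) at 6 h. From 3 to 6 h the covariate gave 0.16 for Sobic.003G385500, 0.0081 for Sobic.003G385900 and 0.25 for Sobic.006G248300. Leaving out single libraries gave -0.033 to 0.79 at 3 h and -0.18 to 0.31 at 6 h for Sobic.006G248300, -0.70 to 0.29 at 3 h for Sobic.008G191000 and -0.068 to 1.36 at 6 h for Sobic.008G157900. Differences from 1 to 3 h ranged from -0.059 to 0.79 for Sobic.001G125900 and -0.0017 to 0.57 for Sobic.003G385500. From 3 to 6 h they ranged from -0.018 to 0.28 for Sobic.001G125800, -0.39 to 0.086 for Sobic.003G385500 and -0.75 to 0.061 for Sobic.006G248300, and from 1 to 6 h from -0.028 to 0.37 for Sobic.003G385500. Intron effects at 6 h ranged from -0.75 to 4.10 for Sobic.001G125700 (-0.47 without the 5) and -0.15 to 0.53 for Sobic.006G248300. All genes called on intron reads were 1894 at 3 h and 1574 at 6 h, against 605 and 546 with exon scaling, 1159 without intact 3 h replicate c, 1226 without intact 3 h replicate a, and 915 to 1040 without single 6 h libraries other than intact replicate d. Members whose intron effect became smaller from 1 to 6 h were 3, against 0 with exon scaling, 5 with no filter, 4 without the 5 and 2 to 5 when single libraries were left out; these settings, and intron fits without the 5 (5 in place of 3 members higher at 3 h), were chosen after seeing the data. The causes were not tested. Sobic.008G157900 and Sobic.008G191000, and intron reads of Sobic.001G125700, rest on few reads.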

Other observations

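Each of the 5 deviating libraries had the highest intron share of gene reads in its group over all genes (4.65% to 7.23%, against 3.12% to 4.63% in the other libraries of those groups). Sobic.001G125900 was the lowest of its group on exon reads in 5 of 5 of these libraries and the highest on intron reads per M gene reads in 4 of 5. In leaf-removed buds at 3 h, replicate b had 3098 CPM on exon reads against 8107 and 10950, but 72.3 intron reads per M gene reads against 64.7 and 73.0. Sobic.003G385500 was lowest on exon reads in 5 of 5 and highest on intron reads in 3 of 5. Sobic.006G248300 was lowest on both in 5 of 5, and Sobic.003G385900 was lowest on exon reads in 5 of 5 and on intron reads in 4 of 5. No cause was tested.

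Over the 18 libraries the log2 CPM of Sobic.001G125900 and Sobic.003G385500 gave a Pearson r of 0.975, and those of Sobic.001G125700 and Sobic.003G385900 one of 0.941. Sobic.006G248300 and the low Sobic.008G191000 gave 0.778 with each other, against 0.587 and 0.379 with Sobic.003G385500. These points share treatment, time and the deviating pools, and the values are a description.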
